A study of Mus musculus with 3 samples.

Results

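Among murine bone marrow derived macrophages (BMDMs), the cells with the most *Fgf13*, *Ccnd1* and *Lpl* transcripts were described here. The members are 3039 of 15626 scored cells, with 1158 from Ctrl, 983 from LP1 and 898 from LP4. A cell was scored if it held at least 2000 unique molecular identifiers (UMIs, each standing for 1 captured transcript), and its score was the UMIs of the 3 genes over all its UMIs. Members were selected on these measured values as the top 20% of each library, without the 32, 27 and 27 cells of Ctrl, LP1 and LP4 that were also in the top 20% for *Apoe*, *Slc9a9* and *Selenop*. All other scored cells, 4791, 4069 and 3727, are called the other cells.

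The BMDMs came from marrow, pooled in the labels' protocol, of female C3H/HeN mice aged 6 to 8 weeks, grown in L929 conditioned medium, which supplies the macrophage growth factor. Ctrl cells received PBS and were collected at 4 h, LP1 cells received 1 µg/mL of purified *Borrelia burgdorferi* lipoproteins (*Bb*LP) for 1 h, and LP4 cells received the same dose for 4 h. Cells derived from 3 mice were treated in separate wells, and the cells of 3 wells were pooled into 1 library per condition, in which mice cannot be told apart. No condition therefore has a replicate, no test between conditions was possible, and every interval below is a 95% interval that covers counting error only. A difference between 2 libraries cannot be told apart from a difference between conditions. Where 3 values follow each other they are in the order Ctrl, LP1, LP4.

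*Lpl* encodes lipoprotein lipase, a secreted enzyme that frees fatty acids from lipoprotein particles and that macrophages make in quantity. *Ccnd1* encodes cyclin D1, which pairs with CDK4 and CDK6 to carry a cell from G1 towards DNA replication, a step that growth factor signalling drives in BMDMs. *Fgf13* encodes a fibroblast growth factor homologue that is not secreted and is best known in neurons as a partner of sodium channels and microtubules. In macrophages, bacterial lipoproteins are sensed by Toll-like receptor 2, whose signalling turns on chemokine, cytokine and, with interferon, antiviral genes.

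*Fgf13* (ENSMUSG00000031137) lies at chrX:59062145-59568071 on the minus strand of GRCm38, *Ccnd1* (ENSMUSG00000070348) at chr7:144929931-144939925 on the minus strand and *Lpl* (ENSMUSG00000015568) at chr8:68880491-68907448 on the plus strand, all as protein coding genes of GENCODE vM21. Members held 7669286, 10650205 and 12853795 UMIs in all. Their median depth was 5924, 10143 and 13385.5 UMIs per cell, above the 4960, 9105 and 11491 of the other cells. They also had more genes per cell, with medians of 2299, 3142 and 3674 against 1958, 2815 and 3192. The median share of mitochondrial UMIs was 2.012%, 2.897% and 3.629% in members and 1.965%, 2.832% and 3.075% in the other cells, and the part of this share in the results was not tested. With cells of at least 5000 UMIs alone, 47 genes were at least 1.5 times higher and 31 lower in members in all 3 libraries, in place of the 61 and 38 given below. Ctrl shared 9 scored barcode sequences with LP1 and 7 with LP4, and the treated libraries shared 3. Members of Ctrl and of LP1 had 2 barcode sequences in common, and no other pair of libraries shared a member barcode.

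The score had no gap at the limit. In counts per 1000000 UMIs (CPM), the lowest member had a score of 4026.58, 4860.4 and 3879.73, and the highest cell just outside had 4025.91, 4859.67 and 3878.43. The median member had 5161, 5945 and 4908 CPM, and the median other cell 1257, 2094 and 1207 CPM. By a score computed after thinning every cell to 2000 UMIs, 75.5%, 71.1% and 68.9% of members would be members again.

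**Figure D1:**
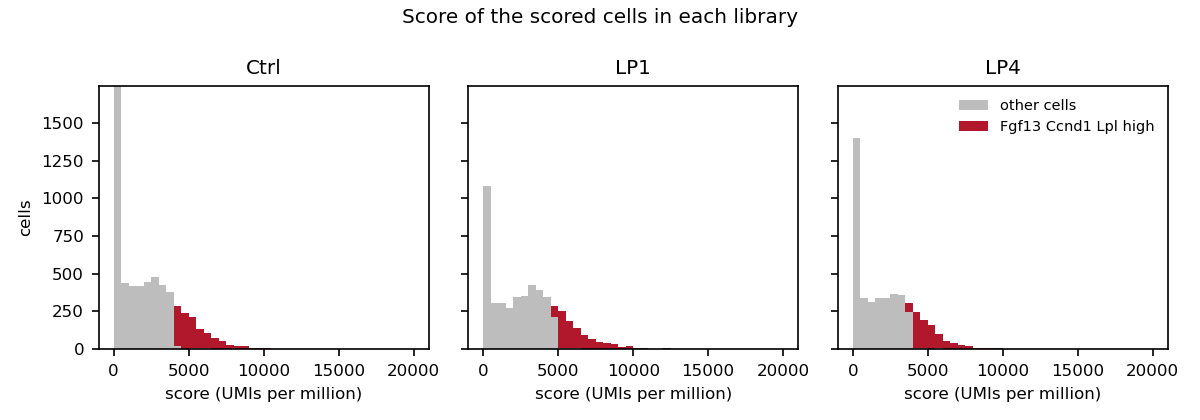
Number of scored cells (y axis) by score in CPM (x axis) in each library, stacked, with members in red and the other cells in grey. The limit lies on a slope without a gap, at 4026.58, 4860.4 and 3879.73 CPM, and the grey cells above it are those removed for *Apoe*, *Slc9a9* and *Selenop*.

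*Lpl* carried most of the score. It gave 77.3%, 75.9% and 93.2% of the score UMIs of members, *Fgf13* gave 17.7%, 18.5% and 3.24%, and *Ccnd1* gave 5.03%, 5.57% and 3.55%. Every member of each library held an *Lpl* UMI. The 3 genes were found together in 49.3%, 68.9% and 42.9% of members, and 8.81%, 3.97% and 15.3% held neither *Fgf13* nor *Ccnd1*. A member of LP4 was thus mostly chosen on *Lpl*.

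Summed over cells, *Fgf13* stood at 964, 1169.6 and 165 CPM in members and at 165, 226 and 57.2 CPM in the other cells. *Ccnd1* stood at 274, 351 and 181 CPM against 58.9, 102 and 40.9. *Lpl* stood at 4204, 4788 and 4738 CPM against 1497, 2009 and 1592. These gaps follow from the selection and are given as a description. Each gene was also measured in members chosen on the other two genes alone, which leaves its own UMIs out of the choice. *Ccnd1* was then still higher in members by 1.81, 1.41 and 1.77 log2 units, *Fgf13* by 1.36, 1.08 and 0.94, and *Lpl* by 0.85, 0.69 and 0.90.

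With every cell thinned to 2000 UMIs, *Fgf13* was detected in 60.1%, 66.1% and 20.8% of members, against 18.1%, 22.1% and 7.75% of the other cells. Before thinning the shares were 78.7%, 85.8% and 58.7% against 31.7%, 44.3% and 26.2%. As a gauge of free RNA, neutrophil marker cells were used, with at least 1% of their UMIs on the neutrophil genes *S100a8* and *S100a9*. After thinning, an *Fgf13* UMI was held by 1 of 21 cells of Ctrl, 0 of 20 of LP1 and 0 of 28 of LP4. These counts allow shares of up to 23.8%, 16.8% and 12.3%. In Ctrl and LP4 this limit lay above the thinned share of the other cells. The median depth of the marker cells was 3947, 6219.5 and 9261.5 UMIs.

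The cells carried the markers of the labelled cell type. All 13 macrophage markers were measured in every library and none was at 0. *Cd68*, a lysosomal membrane protein of macrophages, stood at 903, 927 and 635 CPM in members and 877, 912 and 607 CPM in the other cells. *Itgam*, the CD11b integrin chain, stood at 199, 196 and 299 against 181, 184 and 252 CPM. Most of the 13 markers were lower in members, with 2, 3 and 4 of them above a log2 ratio of 0. The median log2 ratio of the list was -0.28, -0.30 and -0.15. At least 1.5 times lower in members were 3, 3 and 2 of these markers, where 5.6%, 4.6% and 2.94% of all genes with 10 CPM or more in a group were. The most abundant, *Lyz2*, the lysozyme of myeloid cells, stood at 6458, 6692 and 5919 CPM against 9956, 10446 and 9458.

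Across the genome, members differed from the other cells in both directions. Of 2705 genes that reached 50 CPM in the higher group of every library, 61 (2.26%) were at least 1.5 times higher in members in all 3 libraries and 38 (1.4%) were at least 1.5 times lower. The genes used to choose the cells were left out. Since members were chosen from these same cells, the counts are a description and carry no test. The counts depend on scaling. With the trimmed mean of M values (TMM), which moved members against the other cells by -0.08, -0.09 and -0.20 log2 units, 21 genes were higher and 82 lower, and with the median of ratios 32 and 68.

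First of the 12 highest, *Psd3*, an exchange factor for the ARF6 GTPase, stood at 99.7, 113 and 128 CPM in members, against 40.7, 47.9 and 50.03 in the other cells. *Clec5a*, a myeloid lectin receptor that signals through DAP12, stood at 91.5, 141 and 108 against 46.5, 68.6 and 51.0. *Mcm6*, a subunit of the replicative helicase, stood at 117, 135 and 88.5 against 51.4, 60.1 and 45.6. Their log2 ratios were 1.24 to 1.36 for *Psd3*, 0.98 to 1.08 for *Clec5a* and 0.96 to 1.19 for *Mcm6*, with the intervals of members and other cells apart in each library. The genes were ranked by these same ratios, so the separation of the intervals is no test.

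*Cxcl14*, a chemokine, stood apart from the other chemokines, at 204, 218 and 159 CPM in members against 104, 109 and 82.9. *Ybx3*, an RNA and DNA binding protein, and *Rrm1*, the large subunit of ribonucleotide reductase, followed with ratios of 0.93 to 1.04 and 0.88 to 1.00. *Fat3*, a large cadherin, and *Hmga2*, a chromatin protein of growing cells, had ratios of 0.91 to 1.17 and 0.83 to 1.18. *Itga6*, the alpha 6 integrin, *Dok2*, an adaptor of tyrosine kinases, *Prkcb*, protein kinase C beta, and *Nap1l1*, a histone chaperone, completed the list with ratios between 0.77 and 1.13. In single libraries the largest ratios outside this list included *Nptx1*, a pentraxin, at 41.2, 53.8 and 25.9 CPM in members against 13.0, 14.9 and 8.81, and *Fn1*, fibronectin, at 163, 139 and 190.4 against 79.2, 90.6 and 79.5. When members were chosen on *Fgf13* and *Ccnd1* alone, the smallest ratio was 0.09 for *Prkcb* and 0.51 for *Clec5a*, so neither passed 1.5 times in all 3 libraries. Against the cells in the top 20% for *Lgals3* and *Atp6v0a1*, without shared cells, *Prkcb* had ratios of -0.19, 0.07 and -0.13 and *Fat3* of 0.78, 0.80 and 0.48, and the other 10 genes passed 1.5 times in each library.

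Of the 12 genes that stood lowest, *S100a9*, *S100a8* and *Cd74* mark other cell types. *S100a9* stood at 0.782, 0.469 and 1.79 CPM in members, from 6, 5 and 23 UMIs, against 142, 150 and 333 CPM in the other cells. These levels rested on few cells, since without the 142, 111 and 111 other cells that held neutrophil or class II markers the log2 ratio became -0.59, 0.09 and -0.60, and that of *S100a8* 0.04, -0.44 and -0.23. *Cd74*, the invariant chain of class II molecules, had ratios of -1.84, -2.83 and -2.22 with these cells and of -0.47, -1.18 and -0.88 without them, so in Ctrl it no longer passed 1.5 times. No member was a neutrophil marker cell, which allows a share of up to 0.318%, 0.375% and 0.410%.

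The remaining genes of this list are macrophage genes. *Il1b*, the precursor of interleukin 1 beta, stood at 162, 203 and 404 CPM in members and at 454, 510 and 1082 CPM in the other cells. Its log2 ratio was -1.49, -1.33 and -1.42, and -1.48, -1.32 and -1.40 without the neutrophil and class II marker cells. *Cd86*, a costimulatory ligand for T cells, stood at 35.3, 33.8 and 40.2 CPM against 200.5, 149 and 84.8, and the gap was smaller in LP4, where the other cells were lower. *Zfp36l1*, which promotes decay of AU-rich mRNAs, stood at 58.2, 76.8 and 62.5 against 183, 203 and 152. The gaps depended on the cells compared. Against the cells in the top 20% for *Lgals3* and *Atp6v0a1*, without shared cells, the ratio was 0.61, 0.55 and 0.58 for *Zfp36l1* and -0.18, -0.43 and -0.34 for *Cd86*. *Fcgrt*, with ratios of -0.29, -0.53 and -0.51, and *Aif1*, with -0.23, -0.20 and -0.45, did not pass 1.5 times there in any library, nor did *Il1b*, and *Rgl1*, with -0.50, -1.31 and -0.82, did not in Ctrl. Against all other cells, *Fcgrt*, the neonatal Fc receptor, *Ccrl2*, a chemerin binding receptor, and *Clec4n*, the fungal receptor dectin 2, had ratios between -1.58 and -1.09. So did *Rgl1*, *Hacd4* and *Aif1*, an actin binding protein of macrophages. *Thbs1*, thrombospondin 1, was among the lowest in single libraries, at 8.74, 4.13 and 11.6 CPM against 44.0, 28.5 and 110.7.

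**Figure D2:**
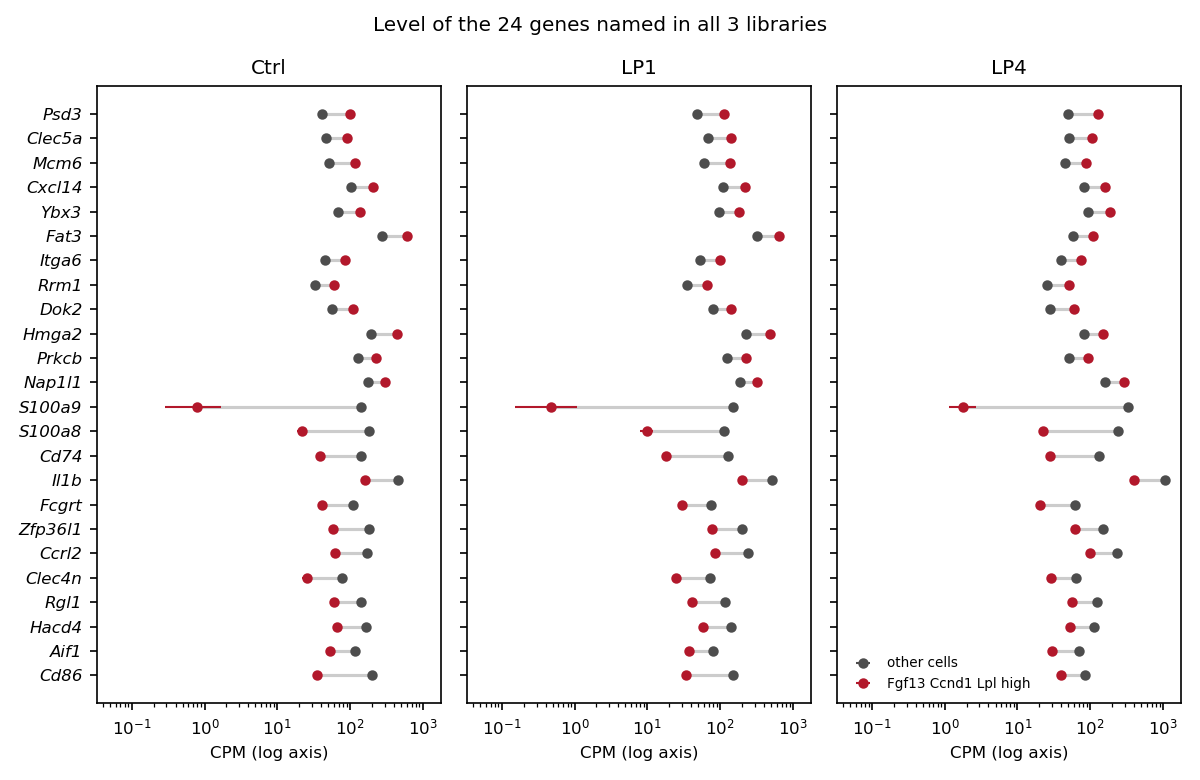
Level in CPM (x axis, log scale) of the 12 genes highest and the 12 lowest in members, in Ctrl, LP1 and LP4, for members (red) and the other cells (grey), with 95% Poisson intervals. Red lies right of grey for *Psd3* to *Nap1l1* and left of it for *S100a9* to *Cd86* in each library, and *S100a9* in members rests on 5 to 23 UMIs.

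Genes of DNA replication were higher in members in each library. Of the S phase list (20 genes, at least 10 CPM in a group), 18 of 18 measured genes were at least 1.5 times higher in members in Ctrl, 13 of 18 in LP1 and 14 of 15 in LP4, where 8.93%, 7.34% and 6.64% of all measured genes were. None was lower, against 5.6%, 4.6% and 2.94% of all genes. The median ratio was 1.21, 0.95 and 0.93, beside 0.08, 0.08 and 0.09 over all genes. The helicase subunits *Mcm3* (78.4, 84.6 and 38.9 CPM in members against 29.8, 36.6 and 14.2) and *Mcm5* (53.3, 50.4 and 33.9 against 21.7, 21.9 and 10.9) were among them. *E2f1*, the transcription factor of this programme, stood at 38.3, 41.5 and 20.6 CPM in members against 23.6, 21.7 and 9.86. *Pcna*, the sliding clamp, stood at 162, 275 and 340 against 89.0, 176 and 201.

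Genes of mitosis were described in the same way. Of the G2 and mitosis list, 7 of 14 measured genes were at least 1.5 times higher in members in Ctrl, 3 of 16 in LP1 and 13 of 16 in LP4, beside the same 8.93%, 7.34% and 6.64% of all genes, with medians of 0.52, 0.41 and 0.85. Its most abundant gene, *Mki67*, a marker of cycling cells, stood at 212, 221 and 283 CPM in members and 223, 221 and 303 in the other cells, so it was not higher. In cells thinned to 2000 UMIs, at least 2 S phase UMIs were found in 34.7%, 44.9% and 35.5% of members against 13.7%, 19.3% and 16.1% of the other cells. At least 2 G2 and mitosis UMIs were found in 15.8%, 17.0% and 18.5% of members against 14.8%, 15.7% and 18.3%. The cells in the top 10% by cell cycle UMIs were 17.4%, 17.1% and 18.9% of members, and without all such cells the S phase median was 1.12, 1.32 and 0.80 and the G2 and mitosis median 0.75, 0.27 and 0.01.

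Since S phase genes were higher together in members, the 250 bases before the annotated start of 4 of them are shown. Sequences are from RefSeq, build GRCm38.p6, written 5′ to 3′ on the strand of the gene. Capitals mark matches to TTTNNCGC, the core that E2F factors bind, and to CCAAT, each searched on both strands, and where 2 matches overlap they form 1 run.
Mcm6 chr1:128359706-128359955 minus strand: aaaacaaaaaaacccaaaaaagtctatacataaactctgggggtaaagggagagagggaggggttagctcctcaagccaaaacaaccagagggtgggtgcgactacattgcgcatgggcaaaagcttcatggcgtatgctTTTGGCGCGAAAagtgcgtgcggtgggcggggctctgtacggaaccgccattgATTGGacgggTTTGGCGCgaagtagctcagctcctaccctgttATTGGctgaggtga
Mcm5 chr8:75109259-75109508 plus strand: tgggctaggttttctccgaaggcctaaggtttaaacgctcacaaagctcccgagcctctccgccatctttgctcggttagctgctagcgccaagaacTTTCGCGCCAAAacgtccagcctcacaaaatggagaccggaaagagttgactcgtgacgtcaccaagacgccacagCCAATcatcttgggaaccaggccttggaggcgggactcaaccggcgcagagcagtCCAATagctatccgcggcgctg
Mcm3 chr1:20820313-20820562 minus strand: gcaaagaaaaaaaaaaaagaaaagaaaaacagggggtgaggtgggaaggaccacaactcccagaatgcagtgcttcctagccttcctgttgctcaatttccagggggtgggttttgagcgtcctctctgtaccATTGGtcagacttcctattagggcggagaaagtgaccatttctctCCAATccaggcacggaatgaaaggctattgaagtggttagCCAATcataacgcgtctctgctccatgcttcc
Rrm1 chr7:102441445-102441694 plus strand: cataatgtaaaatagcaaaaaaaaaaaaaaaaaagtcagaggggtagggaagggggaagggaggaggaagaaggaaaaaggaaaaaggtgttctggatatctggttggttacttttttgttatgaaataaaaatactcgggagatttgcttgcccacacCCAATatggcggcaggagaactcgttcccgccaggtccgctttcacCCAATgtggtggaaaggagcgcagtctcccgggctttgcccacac
TTTNNCGC occurred 3 times before *Mcm6* and 2 times before *Mcm5*, and it was not found in these windows of *Mcm3* and *Rrm1*. Among the 16 windows held for 15 genes of the S phase list, 5 held TTTNNCGC, against 4.28% of all 32851 windows of the same length. CCAAT was in 12 of 16 and in 33.8% of all windows. GGGCGG, the GC box, was in 11 of 16 and in 32.7% of all, and TATAAA in 1 of 16 and in 12.4%. A match is a run of letters, not a site shown to be bound, and TTTNNCGC was added to the search after values were seen. The windows are the same in every cell, so these shares describe the genes of the list and not the members. *Fgf13* has 4 annotated starts in this table. Of their windows, 1 held TGANTCA, the AP-1 motif, which 6.75% of all windows hold, 2 held GGGCGG, 1 held CCAAT and 1 held TTTNNCGC, at 227 bases before the start.

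Genes of ribosome production, a list added after values had been seen, were higher as well. Of 23 measured nucleolar genes, 20 were at least 1.5 times higher in Ctrl members and 17 in LP1 members, and 15 of 22 were in LP4 members, beside 8.93%, 7.34% and 6.64% of all genes, with medians of 0.78, 0.73 and 0.71. *Ncl*, nucleolin, stood at 720, 654 and 514 CPM in members against 474, 426 and 324. *Nolc1*, a nucleolar assembly factor, stood at 73.5, 80.5 and 42.6 against 36.9, 38.7 and 22.7. The CCT chaperonin, which folds actin and tubulin, and factors of nuclear transport, both also added, had medians of 0.48, 0.45 and 0.48 and of 0.64, 0.68 and 0.51. *Ran*, the GTPase of nuclear transport, stood at 164, 284 and 258 CPM against 88.8, 167 and 146.

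The level of actin mRNA was above that of the other cells, by less than 1.5 times. *Actb*, beta actin, stood at 12444, 10229 and 7653 CPM in members and at 8355, 7271 and 5185 in the other cells, with log2 ratios of 0.57, 0.49 and 0.56. *Actg1*, gamma actin, had ratios of 0.56, 0.45 and 0.40, *Flna*, filamin A, 0.59, 0.50 and 0.63, and *Tln1*, talin 1, 0.54, 0.54 and 0.40. In the actin list, 2, 0 and 2 of 30 measured genes were at least 1.5 times higher, a share near or below the 8.93%, 7.34% and 6.64% of all genes, and the medians were 0.23, 0.20 and 0.26. Under TMM the smallest of the 3 medians was 0.06. In glycolysis 2 of 17 genes were at least 1.5 times higher in each library, near the same shares of all genes, with medians of 0.35, 0.30 and 0.35. They were *Eno1*, enolase, at 444, 369 and 273 CPM against 283, 239 and 176, and *Tpi1*, triose phosphate isomerase, at 343, 308 and 262 against 220, 202 and 163.

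Few other lipid genes were higher, and more were lower. Of 17 other measured genes of lipid uptake and storage, 1, 0 and 1 were at least 1.5 times higher in members and 3, 4 and 3 were lower, beside 8.93%, 7.34% and 6.64% of all genes higher and 5.6%, 4.6% and 2.94% lower, with medians of -0.08, -0.09 and -0.08. *Cd36*, the fatty acid transporter and scavenger receptor, stood at 948, 1055 and 1229 CPM in members against 625, 723 and 686. *Fabp5*, a fatty acid carrier, went the other way, at 2985, 2268 and 1971 against 4825, 4260.3 and 2989. *Mgll*, monoglyceride lipase, stood at 15.4, 10.3 and 8.56 against 40.4, 30.5 and 13.0.

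Many inflammatory genes were lower in members than in the other cells of each library. The size of this gap, and for cytokines and chemokines also its direction, depended on which cells members were set against. Of the cytokine list, 6 of 11, 6 of 11 and 8 of 15 measured genes were at least 1.5 times lower, beside 5.6%, 4.6% and 2.94% of all genes, and none was higher, with medians of -0.92, -0.66 and -0.72. Of the chemokine list, 5 of 12, 6 of 12 and 2 of 14 were lower and 1 in each library, *Cxcl14*, was higher, with medians of -0.54, -0.63 and -0.29, and 5 of 14 had a ratio above 0 in LP4. The *Apoe*, *Slc9a9* and *Selenop* high cells are by the rule only among the other cells. Without them the medians over the same genes were -0.63, -0.40 and -0.40 for cytokines and -0.36, -0.48 and -0.18 for chemokines, and the cytokine median nearest 0 was -0.24 when the measured genes were selected anew. Against the cells in the top 20% for *Lgals3* and *Atp6v0a1*, with cells in both sets left out, the members' cytokine medians were 0.38, 0.29 and -0.05 and their chemokine medians 0.31, 0.23 and 0.19. In that comparison *Il1b* stood at 180.2, 215 and 433 CPM in members against 166, 266 and 583 CPM, so it was not lower in members in Ctrl. There the interferon stimulated genes had medians of -0.21 in Ctrl and -0.22 in LP1. The values that follow are again against all other cells unless stated. *Il1a* had ratios of -1.05, -1.12 and -1.40, and *Il1rn*, the interleukin 1 receptor antagonist, of -0.95, -0.84 and -0.83. *Tnf* did not follow them, at 984, 1297 and 305 CPM in members against 801, 1073 and 274. Of the interferon stimulated genes, 13 of 31, 14 of 30 and 7 of 34 were lower, against the same 5.6%, 4.6% and 2.94% of all genes, none had a ratio above 0, and the medians were -0.46, -0.50 and -0.33. Class II and peptide loading genes had medians of -0.44, -0.57 and -0.38, of which the one nearest 0 became -0.20 without neutrophil and class II marker cells, and class I genes -0.30, -0.22 and -0.24. Complement *C1qa*, *C1qb* and *C1qc* had ratios of -1.38 to -0.65. In the TLR2 pathway the counts were 1, 0 and 1 of 17 genes higher and 2 in each library lower, beside the same shares of all genes, with medians of 0.03, -0.05 and 0.07, and no lysosome or respiratory chain gene passed 1.5 times in any library.

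Other cell types were looked for in both groups. The 12 neutrophil markers summed to 193, 188 and 266 CPM in members and 596, 533 and 924 CPM in the other cells, their most abundant gene in members was *Mmp8*, a neutrophil collagenase, at 158, 166 and 199.8 CPM, and *Ly6g*, *Ltf* and *Mpo* were at 0 UMIs in members of every library. The 11 dendritic cell markers summed to 178, 137 and 144 CPM against 252, 262 and 244, and *Ccr7* was at 0 in members of every library. In members most of that sum was *Itgax*, the CD11c integrin chain, at 126, 111 and 106 CPM against 69.6, 78.4 and 59.3. Stromal, lymphoid and mast cell markers summed to at most 7.42 CPM in members. The part of these cells in the ratios was measured by leaving them out of the other cells, after which 58 genes were higher and 36 lower in members in all 3 libraries.

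**Figure D3:**
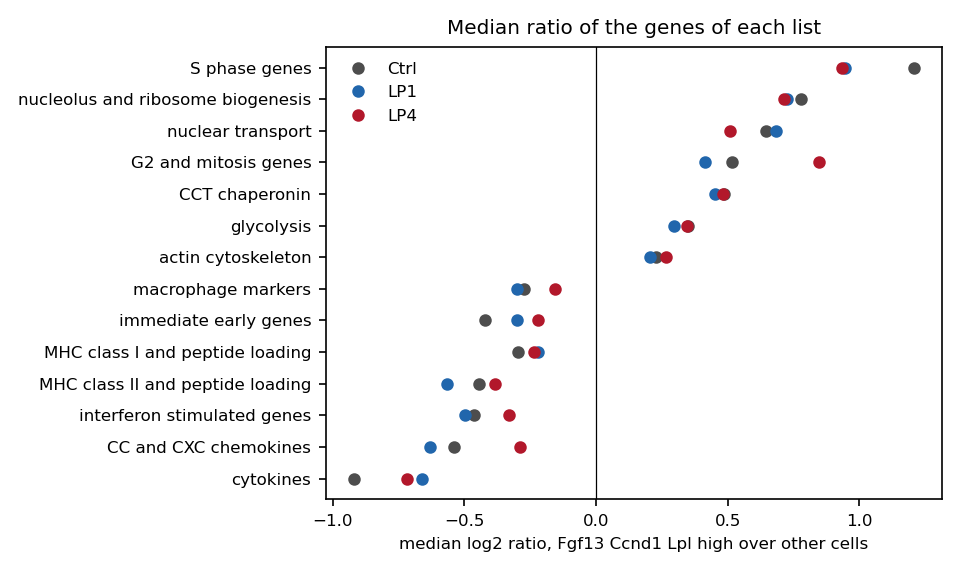
Median log2 ratio of members over the other cells (x axis) for the measured genes of 14 lists, with 1 point per library. Lists of replication, nucleolus, nuclear transport, mitosis, chaperonin, glycolysis and actin lie above 0 and the other lists below 0 in all 3 libraries, beside medians of 0.08, 0.08 and 0.09 over all genes. Against *Lgals3* and *Atp6v0a1* high cells, without shared cells, the median of immediate early genes was instead 0.20 in Ctrl and 0.11 in LP1.

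These levels changed step by step with the score. Scored cells were split into 5 equal groups by score, with group 5 the highest, which describes the rule's own measure and is no test. From group 1 to group 5 in Ctrl, *Actb* went from 4911 through 6656, 9040 and 10929 to 12423 CPM, and *Psd3* from 14.9 to 100.3 CPM. The S phase list summed to 225 CPM in group 1 of Ctrl and to 983 and 1086 in groups 4 and 5, while in LP1 it was highest in group 4, at 1237 against 1204 CPM in group 5. *Il1b* ran the other way, from 846 to 164 CPM in Ctrl and from 1916 to 420 in LP4. *Lyz2* was lower in each next group of every library, from 15139.8 to 6550.2 CPM in Ctrl. *Fabp5* was highest in group 2, at 5294 CPM in Ctrl, and lowest in group 5, at 2996 CPM. *Apoe*, *Slc9a9* and *Selenop* high cells were 54.0%, 60.3% and 53.6% of group 1. Without those cells among the other cells 27 genes were higher and 15 lower in members in all 3 libraries, and the S phase median was 0.95, 0.74 and 0.71. In Ctrl these *Apoe* high cells held *Mcm6* at 19.8, *Psd3* at 25.2, *Cd86* at 458 and *Il1b* at 767 CPM.

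**Figure D4:**
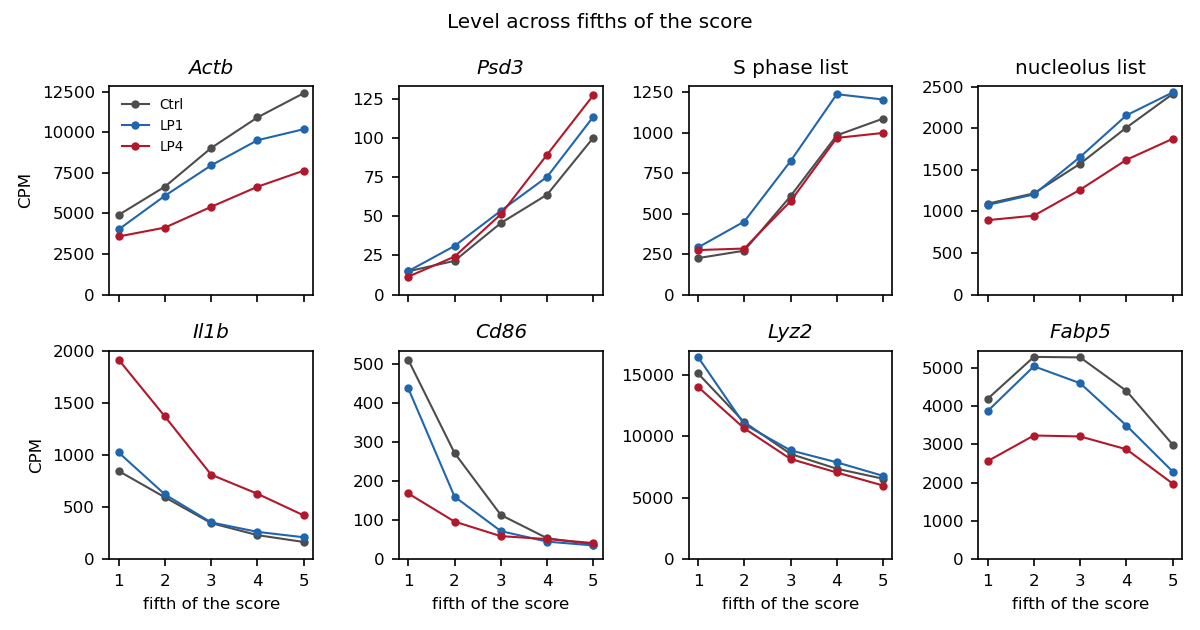
Level in CPM (y axis, from 0) across the 5 score groups from lowest to highest (x axis) for 6 genes and the sums of the S phase and nucleolus lists, with 1 line per library. *Actb*, *Psd3* and the nucleolus list were higher in each next group, *Il1b* and *Lyz2* were lower in each, and *Fabp5* was highest in group 2 in each library.

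Cells in the top 20% for *Lgals3* and *Atp6v0a1* were 19.5%, 13.6% and 18.4% of members, with intervals of 17.3% to 21.9%, 11.5% to 15.9% and 15.9% to 21.1%. In LP1 the interval, which treats cells as independent, lay below 20%, their share of all scored cells by construction. Those scored cells include the *Apoe*, *Slc9a9* and *Selenop* high cells that members leave out, so 20% is not an exact reference. *Lgals3*, galectin 3, stood at 9298, 7986 and 6409 CPM in members against 9774, 9466 and 6772 in the other cells, and *Atp6v0a1*, a proton pump subunit, at 613, 418 and 258 against 466, 369 and 175.

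The response to *Bb*LP was described in members and in the other cells of the same libraries. Members were chosen anew in each library, so a change compares cells picked by rank and not cells that were followed. Both times are set against the same Ctrl library. At 1 h, 26 of 3283 genes with at least 50 CPM were at least 2 times higher in LP1 than in Ctrl members and 12 were lower, and in the other cells 24 and 9 of 3187 were. *Ccl4*, a macrophage inflammatory chemokine, rose from 12.1 to 52.7 CPM in members and *Ccl3*, its neighbour on chromosome 11, from 23.2 to 77.0. *Cebpb*, a transcription factor of the inflammatory response, rose from 87.5 to 304 CPM in members and from 102 to 356 in the other cells. *Cers2*, a ceramide synthase, *Ccl2*, a monocyte chemokine, *Gnb2*, *Phlda1* and *Arf5* rose by 1.33 to 1.48 log2 units in members, and *Gnb2* overlaps *Epo* on the same strand. The 8 largest falls in members were those of *Hist1h4d*, a histone, by 1.61 log2 units, *Atg4a*, an autophagy protease, by 1.41, *Romo1*, *Ndufa2*, *Atp5j2*, *Uqcr11*, *Hcst*, the DAP10 adaptor, and *Polr2i*, an RNA polymerase II subunit. The changes of the same 8 genes in the other cells were between -1.17 and -0.91. Of 28 measured respiratory chain genes, 3 were at least 2 times lower in members, where 0.49% of all genes were, and 5 in the other cells, with medians of -0.45 and -0.44. Ctrl cells were collected at 4 h, so the times of LP1 and Ctrl differ.

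At 4 h, 444 of 3631 genes were at least 2 times higher in LP4 than in Ctrl members and 263 were lower, and in the other cells 478 and 338 of 3546 were. *Ch25h*, which makes 25-hydroxycholesterol, had 0 UMIs in Ctrl members and 229 CPM in LP4 members, at least 585-fold more against a floor of 3 counts in the library's members. *Nos2*, inducible nitric oxide synthase, went from 0 UMIs to 161 CPM, at least 411-fold. *Cxcl10*, an interferon induced chemokine, rose from 2.35 to 746 CPM, *Cxcl3* from 3.52 to 416 and *Gbp5*, a guanylate binding protein, from 6.00 to 675. *Olfr56* rose from 0.913 to 96.7 CPM, but its annotated span holds *Ifi47* on the same strand and reads of the pair may be split uncertainly. *Fpr3*, a formyl peptide receptor, went from 2 UMIs to 55.5 CPM and overlaps *Fpr2* on the same strand.

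The largest falls in LP4 members included immediate early genes, which also fell in the other cells. *Egr1* fell from 154 to 1.87 CPM, *Fosb* from 51.1 to 1.01 and *Nr4a1* from 54.1 to 1.17, and their changes of -6.37, -5.66 and -5.54 in members stood beside -6.41, -6.52 and -5.36 in the other cells. *Fos* fell from 564 to 32.1, *Vegfa*, the vascular growth factor, from 74.5 to 3.27, *Nfkbid*, an inhibitor of NF-kB family, from 140 to 7.24 and *Gpr183*, an oxysterol receptor, from 61.9 to 5.13. Of 21 measured immediate early genes, 13 were at least 2 times lower and 1 higher, *Zfp36*, with a median of -2.16, where 7.92% of all measured genes in members were lower and 10.4% higher and the median of all was -0.05. In the other cells 14 of 22 were lower and 1 higher, with a median of -1.98. In LP1, where 0.861% of all genes were higher and 0.49% lower, 3 of 21 were higher and 0 lower.

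Interferon stimulated genes rose in both groups of cells. Of 34 measured, 30 were at least 2 times higher in LP4 members, beside 10.4% of all genes, and 31 in the other cells, with medians of 3.18 and 2.70. *Rsad2*, viperin, rose from 60.8 to 4255 CPM in members and from 147 to 5189.5 in the other cells, and *Ifit1* from 22.0 to 1556 and from 43.4 to 2116. The difference between the groups of cells was not tested. Of 14 chemokines, 9 rose and 1 fell in members, beside 10.4% and 7.92% of all genes, and 8 rose and 1 fell in the other cells, with medians of 2.34 and 1.41. With members chosen by the score from cells thinned to 2000 UMIs, the chemokine median of members was 1.80. In the TLR2 pathway, 7 of 17 genes rose in members, beside the same 10.4%, and 6 in the other cells. *Tlr2* itself rose from 63.0 to 326 CPM in members and from 119 to 304 in the other cells.

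The score genes chose the members anew in each library, so their change within members follows from the choice and is no response. Over all scored cells *Fgf13* stood at 338, 417 and 79.7 CPM, *Ccnd1* at 105, 152 and 70.2 CPM and *Lpl* at 2082, 2573 and 2251 CPM. The log2 change between Ctrl and LP4 over all scored cells was -2.08 for *Fgf13*, -0.58 for *Ccnd1* and 0.11 for *Lpl*. *Fat3* changed by -2.48 in members and -2.21 in the other cells, *Hmga2* by -1.60 and -1.25 and *Prkcb* by -1.26 and -1.31. The ratio of members to the other cells went from 1.17 in Ctrl to 0.91 in LP4 for *Fat3*, from 1.18 to 0.83 for *Hmga2* and from 0.81 to 0.86 for *Prkcb*. Of 18 measured S phase genes, 6 fell and 1, *Pcna*, rose in LP4 members, where 7.92% of all genes fell and 10.4% rose, and in the other cells 2 of 12 fell and 1 rose.

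Where the 4 h change was set side by side, 117 of 3805 genes (3.07%) changed at least 1.5 times more upwards in members than in the other cells and 74 (1.94%) more downwards. *Cxcl10* rose 318-fold in members and 38.9-fold in the other cells, but held fewer than 20 UMIs in Ctrl members. Among genes with at least 20 UMIs in each group, the largest differences of the first kind were those of 3 chemokines. These were lower in members than in the other cells in Ctrl. *Ccl4* rose by 7.55 log2 units in members, from 12.1 to 2276 CPM, and by 4.195 in the other cells, from 141 to 2590. *Ccl3* rose by 5.07, from 23.2 to 778, and by 2.19, from 163 to 743. *Ccl7*, a monocyte chemokine, rose by 2.00, from 46.8 to 188, and changed by -0.49, from 193 to 138. In each case members and other cells lay far apart in Ctrl and close together in LP4. *Gbp5* changed by 6.82 and 5.05. The difference of the changes was 3.36 ± 0.30 for *Ccl4*, 2.88 ± 0.22 for *Ccl3*, 2.49 ± 0.17 for *Ccl7* and 1.77 ± 0.43 for *Gbp5*, as approximate 95% intervals. With cells of at least 5000 UMIs alone it was 2.70 for *Ccl4* and 1.83 for *Ccl7*, outside these intervals. Without *Apoe*, *Slc9a9* and *Selenop* high cells among the other cells it was 2.36 for *Ccl3*, also outside its interval. For *Gbp5* it lay between 1.55 and 2.16 in all alternatives, within its interval.

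*Mertk*, a receptor for the uptake of dying cells, moved in opposite directions. In members it stood at 16.8, 8.45 and 36.8 CPM, and in the other cells at 78.4, 43.5 and 34.5. Its change at 4 h was 1.13 in members and -1.18 in the other cells, and it was the 1 gene of 3805 whose changes passed 1.5 times in opposite directions. When members were chosen on *Fgf13* and *Ccnd1* alone the difference was 1.49 in place of 2.31.

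With the same minimum of 20 UMIs in each group, the 5 genes with the largest differences of the second kind were *Dusp5*, *Hdac9*, *Tmtc2*, *Errfi1* and *Inhba*. *Dusp5*, a phosphatase of ERK, fell from 264 to 8.79 CPM in members and from 228 to 28.1 in the other cells. *Errfi1*, an inhibitor of the EGF receptor, fell from 345 to 154 in members and stood at 448 and 508 in the other cells. *Hdac9*, a class IIa histone deacetylase, was 3.07 times higher in members in Ctrl, rose from 53.3 to 142 there and from 17.4 to 165 in the other cells, and so ended on nearly 1 level. *Tmtc2* stood at 78.2 and 96.1 CPM in members and rose from 39.3 to 139 in the other cells. *Inhba*, the activin A subunit, rose from 3.13 to 31.3 in members and from 3.13 to 74.4 in the other cells. Choosing members on *Fgf13* and *Ccnd1* alone brought the differences of *Dusp5*, *Inhba*, *Errfi1* and *Tmtc2* from -1.89, -1.25, -1.34 and -1.53 to -1.02, -0.45, -0.79 and -0.82, and left that of *Hdac9* at -1.83.

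**Figure D5:**
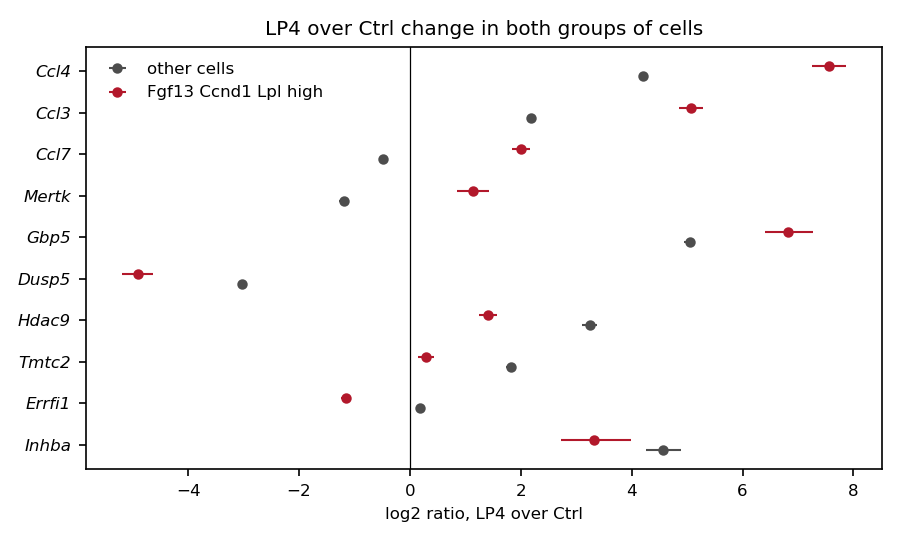
Change at 4 h as log2 of LP4 over Ctrl (x axis) in members (red) and in the other cells (grey), with 95% intervals for counting error. Shown are the 5 genes whose change was most above and the 5 most below that of the other cells. Only genes with at least 20 UMIs in each group were ranked, which leaves out *Cxcl10*. Red lies right of grey for *Ccl4*, *Ccl3*, *Ccl7*, *Mertk* and *Gbp5*, and *Mertk* has its points on opposite sides of 0.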

How the data were processed

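Cell Ranger 7.1.0 and the mm10 build are named in the submitters' processing notes. The deposited values are raw UMI counts of each gene in each barcode, made by the authors for 3 libraries of 6123, 5119 and 5039 barcodes. A barcode was kept above 500 UMIs and 500 genes and below 5% of UMIs from mitochondrial genes (15806), and scored from 2000 UMIs (15626). The members and gene lists were chosen with earlier results of these data known. The lists of CCT chaperonin, nucleolus, nuclear transport and translation initiation were added after values were seen. Translation initiation factors had medians of 0.24, 0.27 and 0.10.

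UMIs were summed over the cells of a group and scaled to CPM, without a count model, since each condition has 1 library. Intervals are exact Poisson for CPM, exact conditional binomial for ratios and exact Clopper-Pearson for shares, at 95%, and a fold against 0 UMIs used a floor of 3 counts. Genes were named from the score and exclusion genes and *Actb*, the 12 highest and 12 lowest in members in all 3 libraries by the ratio nearest 0, the 5 largest and 5 smallest further ratios per library, the 8 largest rises and falls per time, the 5 largest differences of change each way (at least 20 UMIs in each group), and of each list the largest, smallest and most abundant, and not all of these are printed. Other genes of the lists are examples chosen after their values were seen. Mitochondrial, ribosomal protein and unnamed genes were left out, and 5 list genes were not analysed here. Doublets were scored with Scrublet in scanpy 1.11.5 and removed only as an alternative. TMM used edgeR 4.0.16 in R 4.3.3. The functions were tested on simulated data. As an example of precision, the 95% interval of the Ctrl ratio of *Psd3* was 1.16 to 1.43. The result for 1 gene is not reported here.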

Additional observations from a re-analysis of the deposited data

Results flagged for a closer look

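*Mertk*, a receptor for the uptake of dying cells, is given here because its level moved in opposite directions between Ctrl and LP4. The log2 change was 1.13 in members, from 16.8 to 36.8 CPM, and -1.18 in the other cells, from 78.4 to 34.5 CPM. With 1 library per condition the difference was not tested.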

How the results depend on the processing

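No paired analysis was possible because each condition has 1 library and no result comes from a test. Of 61 genes at least 1.5 times higher and 38 lower in members in all 3 libraries, TMM gave 21 and 82, the median of ratios 32 and 68, a comparison without *Apoe*, *Slc9a9* and *Selenop* high cells 27 and 15, a minimum of 20 CPM 136 and 84 and no CPM minimum 385 and 325. A score of *Fgf13* and *Ccnd1* alone, chosen after seeing the data, gave 39 higher genes. Of 444 genes higher and 263 lower in LP4 members, no CPM minimum gave 1157 and 1015 and a minimum of 20 CPM gave 451 lower. Of 191 genes whose LP4 change differed between members and the other cells, there were 108 without *Apoe*, *Slc9a9* and *Selenop* high cells, 339 at 20 CPM, 833 without a minimum and 121 by *Fgf13* and *Ccnd1* alone. The other 82 counts of genes lay within 1.5 times of the reported ones, among them those without cells of high doublet score, which were 3.11%, 2.03% and 2.34% of members. Without neutrophil and class II marker cells the ratio of *S100a8* turned positive in Ctrl (0.04) and that of *S100a9* in LP1 (0.09), and both stayed below 0 in the other libraries. Depth limits what is known of genes under 10 CPM, of single cells and of *Fgf13* in LP4, and pooled wells leave the spread between cultures unknown.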
